A study of Homo sapiens with 2 samples.

Results

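The cells described here are HT1080 cells of intermediate mitochondrial RNA content. They are barcodes with at least 1000 detected genes in which above 10% and at most 20% of the UMIs (unique molecular identifiers, 1 per captured RNA molecule) came from the 13 mitochondrially encoded mRNA genes, named with the prefix MT-. The rule selected 1589 of the 5401 barcodes in the series, 1289 of them control and 300 of them 4B4 barcodes. These barcodes are called the band cells below. The comparison set within each library held the barcodes with at least 1000 genes and at most 10% MT- UMIs, 2113 control and 1085 4B4 barcodes. A further 46 control and 134 4B4 barcodes were above 20%, and 194 and 240 had under 1000 genes. The members were chosen by the measured MT- share of UMIs and the number of detected genes, so every value of that share or of its parts is a description and was not tested.

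HT1080 is an established human fibrosarcoma line, labelled wild type here. Both groups were spheroids of 2000 cells, with about 50 spheroids per sample, embedded in 500 µl of collagen gel and left to invade for 72 h. The 4B4 sample received 2 µg/ml of 4B4, an antibody that blocks the β1 integrin subunit through which many cells bind collagen, and the label of the control names no other antibody. Cells were freed from the gels by collagenase followed by trypsin, a step that both samples share, and each sample gave 1 library of 10x Genomics 3′ counts. With 1 library per treatment there is no replicate and no test, all intervals are 95% and cover counting error only, and treatment and library cannot be told apart.

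Mitochondria keep a small circular genome whose 13 mRNAs encode subunits of the respiratory chain and ATP synthase, while all other subunits are encoded in the nucleus and imported as proteins. The share of MT- UMIs is used in single-cell work as a quality measure, since a cell whose membrane leaks loses cytoplasmic mRNA sooner than RNA held inside organelles or the nucleus. The share also depends on how much other mRNA a cell holds, and cells accumulate mRNA as they grow through the cell cycle toward mitosis.

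Facts of the libraries that touch the results come first. The control library held 128375944 UMIs over 3642 barcodes and the 4B4 library 119566832 UMIs over 1759 barcodes. The 4B4 barcodes thus held more UMIs each on average, and depth below means UMIs per cell. Whether sequencing or the RNA per cell differed was not tested. Both libraries shared 2 barcodes, and no band cell was among them. Most markers of the mesenchymal identity of HT1080 were measured in band cells, at summed levels below those of the comparison sets. VIM, which encodes vimentin, stood at 1548 UMIs per 1000000 UMIs outside the MT- genes (UPM, the unit of all levels below) in control band cells and at 1496 UPM in 4B4 band cells. The comparison sets had 2241 and 1488 UPM. Of 12 such markers 9 reached 5 UPM in any set, while NES, PRRX1 and THY1 did not. The 12 summed to 5419 UPM in control band cells against 6689 UPM in the comparison set. In the 4B4 library they summed to 5367 against 5653 UPM. Of 35 markers of epithelial, endothelial, leukocyte, erythroid, muscle and neuronal cells, 24 were under 1 UPM in all 4 sets of cells, and KRT5, MS4A1, HBA2 and MYOD1 were at 0. Their summed level was 98.3 UPM in control band cells against 65.2 UPM in the comparison set, and 127 against 95.1 UPM in the 4B4 library. The highest single marker was PECAM1, with 48.7 and 64.6 UPM in the band cells of the control and 4B4 libraries.

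A subset of the 4B4 band cells stood apart, and was found after the data had been seen. Cells normally spend a large part of their mRNA on the proteins of the cytosolic ribosome. The share of UMIs outside MT- genes that came from cytosolic ribosomal protein genes was under 5% in 39 of the 300 4B4 band cells (13%, Clopper-Pearson interval 9.41 to 17.3%). It was under 5% in 4 of 1289 control band cells (0.310%, 0.0846 to 0.793%). In the comparison sets it was under 5% in 27 of 1085 4B4 cells and in 4 of 2113 control cells. The 39 cells had a median ribosomal protein share of 0.915% and the other 261 4B4 band cells one of 20.05%, with 1 cell between 4 and 6%. The 39 cells also had a median of 26090 UMIs against 60324 in the other 261, a median MT- share of 15.9% against 11.1%, and a median MALAT1 share of 7.14% of their UMIs outside MT- genes against 1.06%. MALAT1 is a long noncoding RNA that stays in the nucleus. They held 5.89% of the UMIs outside MT- genes of the 4B4 band.

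These cells lay toward the upper bound of the band. With the band split into 3 bins, namely the 2.5 percentage points above 10%, the 2.5 points below 15%, and 15 to 20%, they were 7 of 201, 11 of 64 and 21 of 35 4B4 cells, and 102 of the 134 4B4 barcodes above 20%. Control cells with so few ribosomal protein UMIs were 2 of 809, 1 of 353 and 1 of 127 in the same 3 bins. The 4B4 comparison set had a second feature. Of its cells, 167 had at most 2.5% MT- UMIs, with a median of 118814 UMIs, and they held 24.4% of its UMIs outside MT- genes, where 74 such control cells held 3.85%. Results in the 4B4 library are therefore given with all cells, with cells of 5% or more ribosomal protein UMIs, and with the comparison set restricted to above 2.5 and at most 10%.

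Band cells made up 37.4% (35.8 to 39.0%) of the control barcodes with at least 1000 genes and 19.7% (17.8 to 21.8%) of the 4B4 barcodes. The 4B4 share was smaller, and the depth of the libraries differed. Within each library the band share varied with depth. The shares by depth that follow count only cells with at most 20% MT- UMIs, of which the band made up 37.9% in the control and 21.7% in the 4B4 library. With these cells split into 5 equal groups by UMIs outside MT- genes, the band share went from 55.7% in the shallowest to 28.8% in the deepest control group. Among 4B4 cells it went from 30.7 to 8.30%. Among cells with 20000 to 40000 such UMIs it was 35.7% of control and 29.2% of 4B4 cells, and among cells with 40000 to 60000 it was 31.3 and 29.4%. For cells called G1, as defined below, the same windows gave 45.0 (42.2 to 47.9%) against 28.8% (23.0 to 35.1%), and 48.0 against 31.8%. The library difference was thus small at matched depth over all cells and larger at matched depth and phase. The bounds of the band mark no gap, since 477 control cells lay between 9 and 10% and 369 between 10 and 11%, with 151 and 129 in the 4B4 library. At the upper bound 10 control cells lay between 19 and 20% and 5 between 20 and 21%, against 4 and 6.

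Band cells held both more mitochondrial and less other RNA than the comparison set. The median band cell of the control library had 3516 MT- UMIs against 2499, a ratio of 1.41, and 25752 other UMIs against 32344, a ratio of 0.796. That of the 4B4 library had 6796 against 4218 MT- UMIs (1.61) and 50123 against 67290 other UMIs (0.745). Control band cells had a median of 6055 detected genes against 6595, and 4B4 band cells 7972 against 8600. The rule fixed the direction of the share that MT- and other UMIs form together. It did not fix the direction of each alone, which is a description.

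Band cells were largely outside S phase and mitosis. Phase was called from the expression of 43 S phase and 54 G2 and mitosis genes, which the rule did not use, in cells thinned to 14000 UMIs outside MT- genes. The thinning left out 123 band cells and 107 comparison cells of the control library, and 16 and 56 of the 4B4 library, as too shallow. Among control cells 89.0% (87.1 to 90.8%) of 1166 band cells were called G1, 6.26% S and 4.72% (3.57 to 6.10%) G2M. In the comparison set 56.1% of 2006 cells were called G1, 14.1% S and 29.9% (27.9 to 31.9%) G2M. Among 4B4 cells 94.4% of 284 band cells were called G1, 3.87% S and 1.76% (0.574 to 4.06%) G2M, against 85.6, 5.93 and 8.45% (6.83 to 10.3%) of 1029 comparison cells. The G2M share was thus lower in the band in both libraries. The counting intervals did not overlap, but they count cells within 1 library and leave the spread between cultures unknown. The 4B4 band rests on 11 S and 5 G2M cells, of which 5 and 2 were among the ribosomal protein-poor cells; without those it had 96.5% G1 cells. On unthinned cells the comparison set of the control library had 15.7% S cells. G1 here means low scores for both gene sets and includes cells that have left the cycle.

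**Figure D1:**
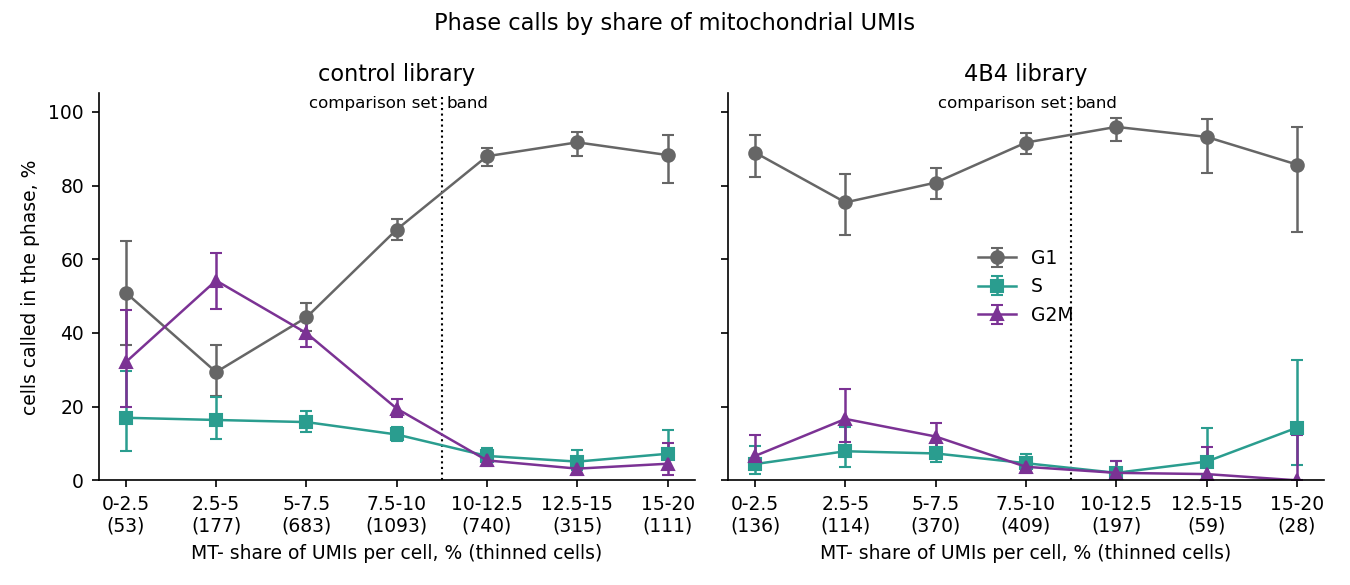
Percent of thinned cells called G1, S or G2M (y axis) in bins of the MT- share of UMIs per cell (x axis, with the number of cells in parentheses) in the control (left) and 4B4 (right) library; points are shares and bars exact 95% intervals for counting error. In the control library the G2M share is 32.1% of cells with at most 2.5% MT- UMIs and 54.2% at 2.5 to 5%. It falls over 40.0% and 19.5% in the next bins to 5.41% in the first bin of the band. It stands at 3.17 and 4.50% in the upper bins. In the 4B4 library it is 3.67% at 7.5 to 10% and 2.03% in the first bin of the band. The fall thus begins below the band.

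Seen by phase, few dividing cells reached the band. In the control library 48.0% of the 2163 G1 cells with at most 20% MT- UMIs were band cells, against 20.6% of 355 S cells and 8.41% of 654 G2M cells. The 4B4 shares were 23.3% of 1149 G1, 15.3% of 72 S and 5.43% of 92 G2M cells. The number of MT- UMIs per cell changed little with phase in the control library, with medians of 3019 in G1, 2869 in S and 2986 in G2M. The UMIs outside MT- genes had medians of 28112, 33699 and 41936. MT- UMIs of 4B4 cells had medians of 5015, 4458 and 5559, and the other UMIs 63668, 59299 and 91785. Control G2M cells thus held more non-mitochondrial RNA at a similar number of mitochondrial transcripts, and 4B4 G2M cells held more of both than G1 cells. Within G1 the sets, which the rule split by the MT- share, differed in MT- UMIs and in other UMIs, given here as a description. Control G1 band cells had a median of 3711 MT- UMIs against 2442 and of 27185 other UMIs against 29209. G1 band cells of the 4B4 library had 7067 against 4328 MT- UMIs and 52153 against 67655 other UMIs.

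**Figure D2:**
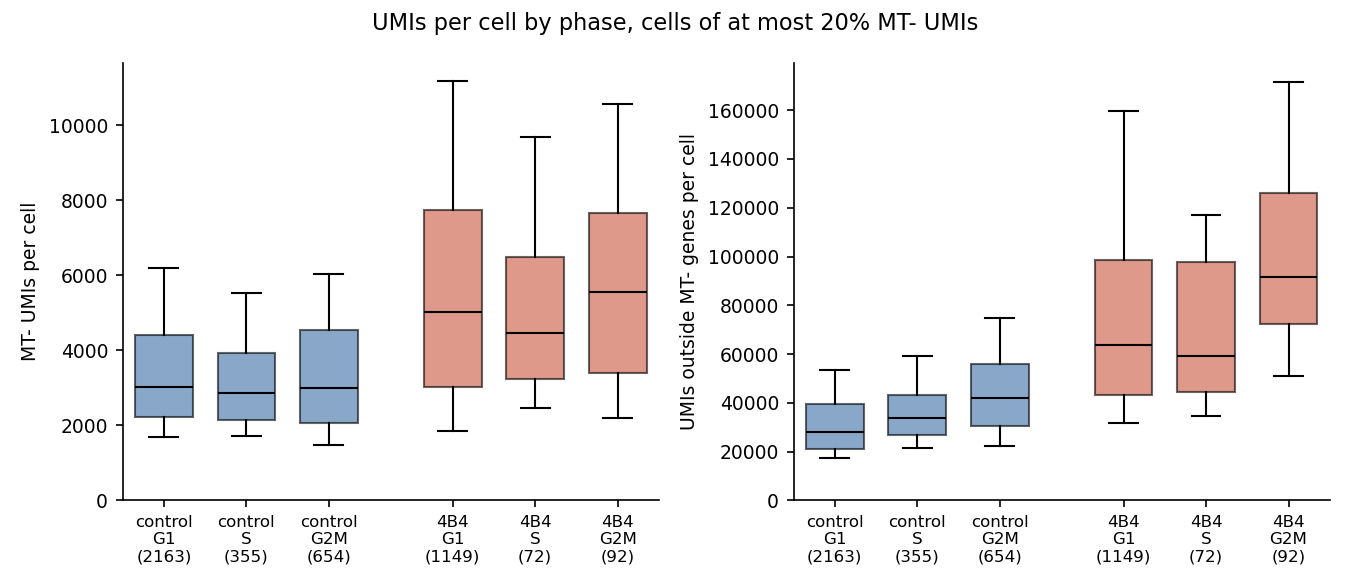
MT- UMIs per cell (left) and UMIs outside MT- genes per cell (right) by library and called phase (number of cells in parentheses), for cells of at most 20% MT- UMIs; boxes span the quartiles with the median as a line, and whiskers run from the 10th to the 90th percentile. Control medians of MT- UMIs lie between 2869 and 3019, while the other UMIs go from 28112 in G1 to 41936 in G2M.

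Many cell cycle genes were among the genes lower in the band. Genes with at least 20 UPM in either set were counted by size, at a ratio of summed levels of at least 1.5 whose counting interval lay on the same side of 1. In the control library 285 of 7257 genes (3.93%) were lower in the band and 100 (1.38%) higher. Of the 4B4 genes 48 of 7357 (0.652%) were lower and 1030 (14%) higher. Of 6920 genes that reached 20 UPM in both libraries, 37 (0.535%) were lower in both and 55 (0.795%) higher in both. With trimmed-mean (TMM) scaling of the same sums, the split was 446 lower (6.15%) to 36 higher (0.496%) in the control library, 498 (6.85%) to 67 (0.921%) in the 4B4 library and 126 (1.82%) to 3 (0.0434%) in both. Genes of the S phase and the G2 and mitosis lists were 66 of the 285 genes lower in the control band, 15 of the 48 lower in the 4B4 band and 15 of the 37 lower in both, and 0 of the higher genes were on these lists. The median log2 ratio of all genes was 0.05 in the control and 0.23 in the 4B4 library. Ratios are log2, band over comparison set, unless another base is named.

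The promoters of the mitotic genes carry known cell cycle letters, and a few are shown because many of the lowest ratios of both libraries were those of mitotic genes. Many promoters of genes used in G2 and mitosis hold a CHR element, spelled TTTGAA, a binding letter sequence of the DREAM and MuvB complexes, near CCAAT boxes bound by NF-Y. Both were searched on either strand in RefSeq windows from 250 bases before to 50 after each start (GRCh38.p14). Of 54 G2 and mitosis genes 45 matched, with 58 promoters; TTTGAA was in 62.1% of these, against 15.2% of all 35116 promoters and 9.30% of the 43 promoters of S phase genes. CCAAT was in 65.5%, 34.6% and 67.4%. Both were in 48.3% of the G2 and mitosis promoters, 5.90% of all and 6.98% of the S phase promoters. The 120 bases before the start follow for 4 promoters, 5′ to 3′ on the gene's strand, with both motifs on either strand in capitals; in MKI67 a TTTGAA and an ATTGG share 1 base.
MKI67, chr10:128126424-128126543, minus strand: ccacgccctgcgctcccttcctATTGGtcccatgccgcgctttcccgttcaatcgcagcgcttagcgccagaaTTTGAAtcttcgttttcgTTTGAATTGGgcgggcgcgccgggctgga
CDC20, chr1:43358861-43358980, plus strand: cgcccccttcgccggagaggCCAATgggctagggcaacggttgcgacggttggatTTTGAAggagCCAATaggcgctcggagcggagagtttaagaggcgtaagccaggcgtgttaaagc
CENPF, chr1:214603075-214603194, plus strand: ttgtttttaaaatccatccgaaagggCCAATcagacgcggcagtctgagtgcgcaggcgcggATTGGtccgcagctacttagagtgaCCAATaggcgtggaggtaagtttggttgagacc
CDK1, promoter 1, chr10:60778211-60778330, plus strand: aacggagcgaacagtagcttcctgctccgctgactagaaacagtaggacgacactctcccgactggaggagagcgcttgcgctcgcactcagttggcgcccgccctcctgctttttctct
The MKI67 stretch holds 2 TTTGAA and 2 CCAAT, that of CDC20 has 1 and 2, and that of CENPF has 3 CCAAT alone. The CDK1 stretch holds neither, whereas the stretch before the other RefSeq start of CDK1 holds 2 of each. The stretches are shorter than the windows searched. The window of CENPF also holds a TTTGAA past the start. That of CDK1 promoter 1 holds a TTTGAA and a CCAAT, 161 and 150 bases before the start. A match is a description of the letters in these windows and says nothing about binding in these cells.

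UBE2C, which encodes the ubiquitin-conjugating enzyme of the anaphase-promoting complex, stood at 16.1 UPM in control band cells and 134 UPM in the comparison set, and at 4.17 and 31.7 UPM in the 4B4 library. Its ratios were −3.05 (−3.17 to −2.93) and −2.93 (−3.29 to −2.59). In the 4B4 band 46 of its 71 UMIs came from 1 cell, and without the top 1% of cells per gene its ratios were −3.72 and −4.49, with −3.15 and −3.30 for MKI67 and −3.27 and −2.69 for CDK1. MKI67, a coat protein of mitotic chromosomes used as a proliferation marker (chromosome 10, 128096659 to 128126385, minus strand, GENCODE 29), had 17.9 and 99.7 UPM in the control library and 3.17 and 28.2 UPM in the 4B4 library. Its ratios were −2.48 and −3.15, and −4.30 in the 4B4 library without the ribosomal protein-poor cells. CDC20, the activator of the anaphase-promoting complex, had ratios of −3.01 and −2.84. CDK1, the kinase that drives mitotic entry, was at 13.1 against 83.1 UPM and at 5.11 against 23.5 UPM, with ratios of −2.66 and −2.20. These genes were lower by more than 4-fold in the band of both libraries.

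Genes of chromosome segregation followed the same direction. CENPF, a kinetochore protein, had ratios of −2.23 and −1.98, NUSAP1, a spindle microtubule protein, −2.33 and −1.90, and MAD2L1, a spindle checkpoint protein, −2.32 and −1.86. The separase inhibitor PTTG1 had −1.94 and −1.15, the phosphatase gene CDKN3 −1.95 and −1.29, the kinetochore gene CENPH −1.32 and −1.27, and the chromatin protein HMGB2 −2.09 and −1.27. Genes of DNA synthesis were lower too. TYMS, which makes thymidylate, was at 53.2 against 189 UPM and 14.4 against 49.0 UPM (−1.83 and −1.76), and PCLAF, a partner of the replication clamp PCNA, had −1.87 and −1.97. RRM2, the ribonucleotide reductase subunit, had −2.36 and −1.29.

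By list, counted at 5 UPM or more, 48 of 53 measured G2 and mitosis genes were lower in the control band and none higher, with a median ratio of −2.23; over all 11742 genes by the same floor 4.46% were lower and 2.9% higher, with a median of 0.08. In the 4B4 band 34 of 48 were lower, with a median of −1.31, where 1.38% of all 11688 genes were lower and 15.4% higher, with a median of 0.25. Without the ribosomal protein-poor cells the 4B4 median was −1.57. For S phase genes 36 of 42 were lower in the control band (median −1.11) and 15 of 39 in the 4B4 band (median −0.49), or 20 with a median of −0.61 without those cells. Of 15 histone genes of the replication-dependent list, 8 were lower in the control band (median −0.65) and 3 in the 4B4 band (median −0.11). The direction of the mitotic and S phase lists was the same in both libraries and under TMM scaling, with G2 and mitosis medians of −2.37 and −1.61.

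Within G1 cells fewer genes differed between band and comparison set. The phase call uses the S and G2M genes, which makes their levels low in G1 cells of either set. Of 6980 control genes 17 (0.244%) were higher and 11 (0.158%) lower in G1 band cells. Of 7253 4B4 genes 876 (12.1%) were higher and 17 (0.234%) lower, and 10 (0.147%) were higher and 1 (0.0147%) lower in both libraries. The control median of the G2 and mitosis list was −0.02 in G1 cells, and with the comparison set above 2.5% it was 0.01. Of the 285 genes lower in the control band 9 were also lower within G1, and of the 100 higher genes 16 were also higher. In G1 cells with 5% or more ribosomal protein UMIs and the comparison set above 2.5%, 11 genes were higher and 11 lower of 6982 control genes (0.158% each), 8 (0.113%) were higher and 1 (0.0141%) lower of 7079 4B4 genes, and 0 of 6765 were called in both libraries. Cells left out of G1 and the smaller sums both enter that comparison.

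**Figure D3:**
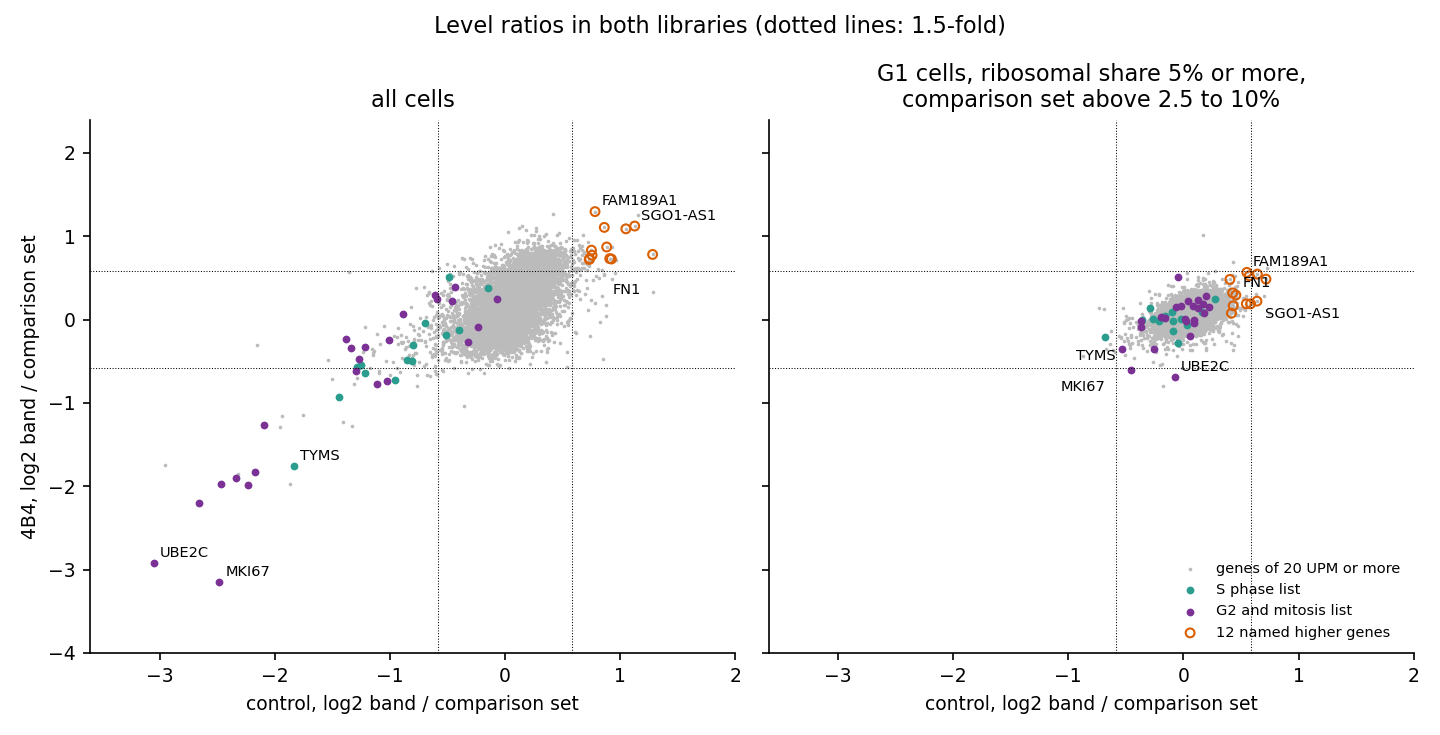
Log2 ratio of each gene's level in band cells over the comparison set in the control library (x axis) and the 4B4 library (y axis), for genes of 20 UPM or more in both libraries; dotted lines mark 1.5-fold, and colours mark the S phase list, the G2 and mitosis list and the 12 named higher genes. Over all cells (left) the cell cycle genes extend to about −3 in both libraries, and among G1 cells with 5% or more ribosomal protein UMIs (right) 0 genes are called in both.

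Noncoding RNAs and protein-coding genes of several kinds were among the genes higher in the band of both libraries. SGO1-AS1, a noncoding transcript antisense to the shugoshin gene, was at 92.9 against 42.6 UPM in the control and 53.3 against 24.5 UPM in the 4B4 library, with ratios of 1.13 (1.06 to 1.19) and 1.12 (1.01 to 1.23). MIR3681HG, a microRNA host transcript, was at 57.0 against 27.5 UPM and 66.3 against 31.2 UPM (1.05 and 1.09). B4GALT5, a galactosyltransferase of glycolipid synthesis, was at 203 against 110 UPM and 195 against 106 UPM (0.88 and 0.87). These 3 stood about as far above the comparison set in one library as in the other. MIR4300HG had 0.86 and 1.11, FAM189A1 0.78 and 1.30, SPRY4-AS1 0.75 and 0.83, and HCG17 0.74 and 0.73. The counting is not stated to use strand, so reads of the antisense genes and their partners may be mixed.

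The collagen receptor subunit genes ITGA10 and ITGA11 were among the higher genes. ITGA10, which pairs with β1 integrin to bind collagen, was at 69.8 against 41.3 UPM and 79.8 against 46.7 UPM (0.76 and 0.77). ITGA11, another collagen receptor subunit, had 0.67 and 0.68. Of 12 measured integrin subunits 2 were higher in the control and 3 in the 4B4 band, with medians of 0.18 and 0.41, and none was lower; over all genes of 5 UPM or more 2.9% and 15.4% were higher, with medians of 0.08 and 0.25. ITGB1 itself, the β1 subunit that 4B4 blocks, was at 760 against 678 UPM and 1013 against 803 UPM (0.16 and 0.33), under the fold in both. FN1, which encodes fibronectin, was at 1068 against 587 UPM in the control library (0.86) and 1718 against 1184 UPM in the 4B4 library (0.54). KLHL24, a ubiquitin ligase adaptor, had 0.92 and 0.73, FBXL20, an F-box protein, 0.91 and 0.73, and MKLN1 0.73 and 0.72. SLC5A3, the inositol transporter, had 1.28 and 0.78. It shares a locus with MRPS6 (0.83 and −0.03), so its reads may be split between them. MRPS6 was added after its values were seen.

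Those ratios shrank in the restricted sets. In G1 cells with 5% or more ribosomal protein UMIs and the comparison set above 2.5%, SGO1-AS1 had 0.64 in the control and 0.22 in the 4B4 library, MIR3681HG 0.64 and 0.55, B4GALT5 0.57 and 0.52, SLC5A3 0.72 and 0.49, ITGA10 0.43 and 0.32, and FN1 0.46 and 0.32. The 12 named higher genes kept their direction there, and none was past 1.5-fold in both libraries. They were picked for keeping their sign in G1 cells, among other alternatives, so the kept direction is no independent result.

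The number of genes higher in the 4B4 band changed with the cells included and with the scaling. Without the ribosomal protein-poor cells 95 of 7163 genes (1.33%) were higher and 41 (0.572%) lower. Of the 1030 genes 94 were still called higher. With the band limited to its first 2.5 points 127 of 7165 (1.77%) were higher. With the comparison set above 2.5% 127 were higher (1.73%), and with both restrictions 11 of 7178 (0.153%). TMM scaling of all cells left 67, as given above. The median ratio of all genes, 0.23 with all cells, was 0.19 without the ribosomal protein-poor cells, 0.10 with the comparison set above 2.5% and −0.07 with TMM scaling. Why these counts differ was not tested. Leaving out such cells from the control library gave 98 higher (1.35%) and 284 lower (3.92%) genes. Genes higher in both libraries numbered 22 of 6848 (0.321%) and genes lower in both 36 (0.526%) without these cells, against 55 and 37 with them.

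MALAT1 was at 17595 UPM in control band cells and 11220 in the comparison set (0.65), and at 20191 and 12245 UPM in the 4B4 library (0.72). Over the 3 bins of the band its level went from 15682 to 27134 and 54123 UPM in the 4B4 library. The control level went from 18600 to 16387 and 14089 UPM. The 2 libraries thus ran in opposite directions within the band. Without the ribosomal protein-poor cells the 4B4 ratio was 0.41, and in G1 cells with both restrictions it was 0.00, against 0.24 in the control library. NEAT1, the RNA scaffold of nuclear paraspeckles, had 0.67 and 0.83, and 0.35 and 0.23 in the restricted G1 cells. Of 17 measured nuclear noncoding RNAs 2 were higher in the control band and 6 in the 4B4 band, with medians of 0.12 and 0.36, beside 2.9% and 15.4% of all genes by the same floor, with medians of 0.08 and 0.25; without the ribosomal protein-poor cells 1 was higher in the 4B4 band, with a median of 0.23.

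Ratios also differed by gene length. By gene span in GENCODE 29, the 4B4 median ratio was −0.15 for 1279 genes under 10 kb, 0.05 for 1787 genes of 10 to 30 kb, 0.30 for 2401 genes of 30 to 100 kb and 0.54 for 1878 genes of 100 kb or more. The control medians were −0.03, −0.02, 0.07 and 0.15. Without the ribosomal protein-poor cells the 4B4 medians were −0.09, 0.08, 0.26 and 0.32, and with the comparison set also above 2.5% they were −0.01, 0.04, 0.09 and 0.09. The 4B4 medians thus lay closest together under both restrictions. What these cells are was not tested.

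**Figure D4:**
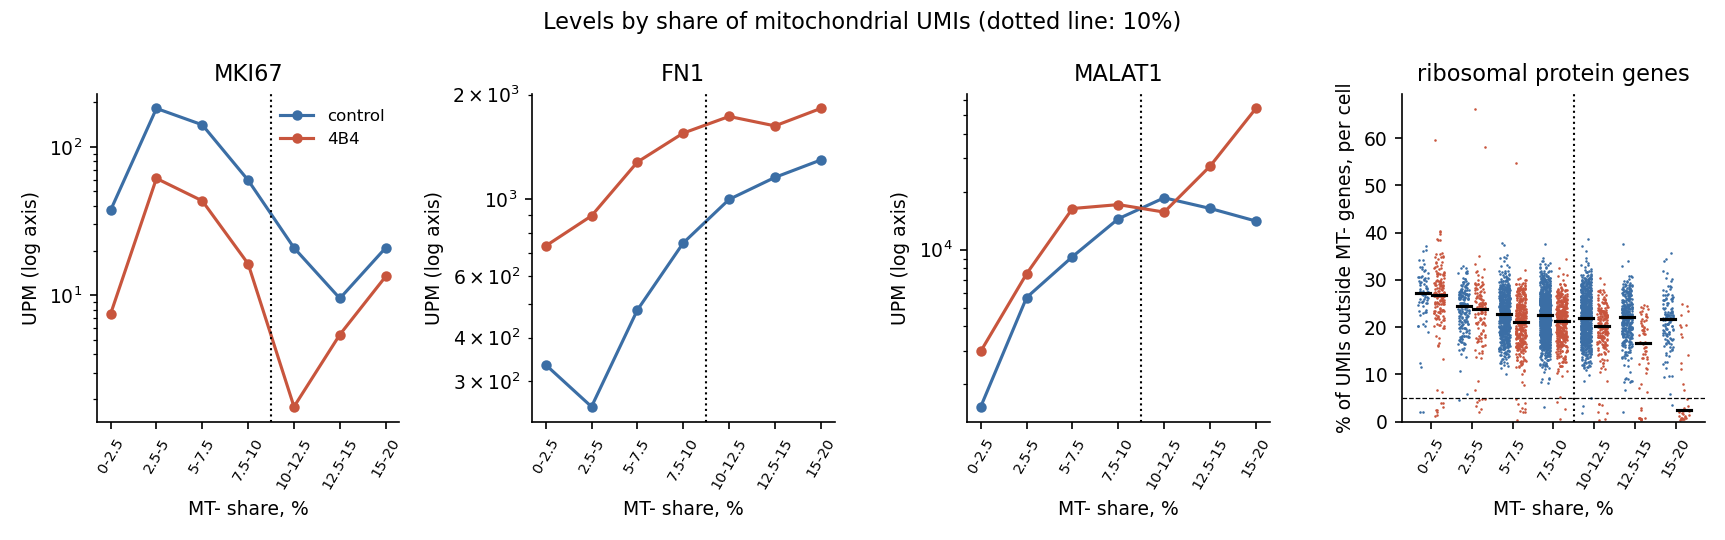
Summed levels (UPM, log axes) of MKI67, FN1 and MALAT1 by MT- share of UMIs in the control and 4B4 libraries, and the percent of each cell's UMIs outside MT- genes that came from cytosolic ribosomal protein genes (points are cells, black bars medians, dashed line 5%); the dotted line marks 10% MT- share. FN1 is higher in the bins above 10% than in those below 5% in both libraries. At 7.5 to 10% it already stands at 749 UPM in the control and 1550 UPM in the 4B4 library. MALAT1 parts between the libraries inside the band, and the 4B4 cells at 15 to 20% have a median ribosomal protein share of 2.43%.

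Nuclear-encoded mitochondrial genes did not share the higher level of the MT- mRNAs. Of 37 measured genes for nuclear-encoded subunits of respiratory complex I, 0 were past 1.5-fold in either library, with medians of −0.01 in the control and −0.16 in the 4B4 library. The 39 genes of complexes II to IV and ATP synthase had 0 called and medians of −0.02 and −0.22. COX5A, a subunit of cytochrome c oxidase, had −0.25 and −0.43, and CYCS, cytochrome c, −0.44 and −0.24. Mitochondrial ribosomal protein genes had medians of −0.16 and −0.19 over 54 members, of which MRPS6 alone was called. Of 22 genes for upkeep and expression of mitochondrial DNA, 0 were called in the control and 1, POLG2, in the 4B4 band. With the ribosomal protein-poor cells left out, 0 of these genes were past 1.5-fold in the 4B4 band. PPARGC1A, a coactivator of mitochondrial biogenesis, had 0.88 and 0.82, at 5.73 against 3.12 UPM and 6.45 against 3.66 UPM, close to the floor of 5 UPM. Without the ribosomal protein-poor cells the 4B4 medians of complex I and of complexes II to IV and ATP synthase were −0.08 and −0.14.

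The make-up of the mitochondrial mRNA itself was similar in band and comparison cells. MT-CO2, a subunit of cytochrome c oxidase, took 22.6% of control band MT- UMIs against 23.9%, and 24.1 against 25.8% in the 4B4 library. MT-CO1 took 17.6 against 17.9% and 19.7 against 21.1%, and MT-ATP6 13.6 against 12.2% and 11.6 against 10.4%. MT-ND6, encoded alone among these mRNAs on the other strand, took 0.166 against 0.278% in the control library (log2 ratio of shares −0.75) and 0.161 against 0.159% in the 4B4 library. The rule fixed the sum of these genes and not their proportions.

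Few genes of the stress programmes often read beside the mitochondrial share were called. Over all genes of 5 UPM or more 2.9% were higher and 4.46% lower in the control band, and 15.4% and 1.38% in the 4B4 band. Of 12 genes of the mitochondrial unfolded protein response and 9 heat shock genes, 0 were called in either library, with medians of −0.16 and 0.17, and of −0.11 and 0.12. Of 20 p53 targets 1 was higher in the control band (TP53INP1, 0.81) and 2 in the 4B4 band, with medians of 0.19 and 0.20. Of 22 BCL2 family and caspase genes 1 was higher and 1 lower in the control band and 3 were higher and 0 lower in the 4B4 band, with medians of −0.04 and 0.17. BMF, a sensor that promotes cell death, was higher in both (0.92 and 0.59), BCL2L11, another such sensor, and XIAP, a caspase inhibitor, were higher in the 4B4 band (0.68 and 0.66), and BCL2A1, a survival member, was lower in the control band (−1.54), at 4.35 against 12.7 UPM, with −0.33 in the 4B4 band. Of 23 NRF2 targets and antioxidant enzymes 0 were called in the control band and 1 was higher in the 4B4 band. Of 29 lysosomal genes 1 was higher in each library, with medians of 0.27 and 0.22, against 0.08 and 0.25 for all genes. TPP1, a lysosomal peptidase, had 0.71 and 0.38. In glycolysis and hypoxia, 3 of 27 were higher and 0 lower in the control band and 2 of 26 higher and 1 lower in the 4B4 band, with medians of 0.14 and 0.17. The summed level of the list was 7338 against 7992 UPM in the control and 7802 against 9432 UPM in the 4B4 library. Higher members were the glucose transporter gene SLC2A3 (0.73, and 0.64 in the 4B4 band) and EGLN3, an oxygen sensor (0.60 and 0.76), and the lower member was GAPDH of glycolysis (−0.22 and −0.59), named after its values were seen. The 4B4 counts above are for all cells. With the ribosomal protein-poor cells left out, 0 p53 targets, 0 NRF2 targets and 0 lysosomal genes were past 1.5-fold in the 4B4 band. For BCL2 family and caspase genes 2 were then higher, and for glycolysis and hypoxia 2 were higher and 0 lower.

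In the ATF4, cholesterol and SRF groups below a few members were lower in the control band and none was called in the 4B4 band. The difference between libraries was not tested. Over all genes by the same floor 4.46% were lower in the control band, with a median of 0.08. Of 15 genes of the ATF4 and amino acid response 3 were lower in the control band, namely PHGDH (−0.87) and PSAT1 (−0.76) of serine synthesis and MTHFD2 (−0.60) of mitochondrial folate metabolism, with −0.39, −0.23 and −0.20 in the 4B4 band. Of 20 cholesterol synthesis and uptake genes 3 were lower in the control band, MVD (−0.62) and EBP (−0.63) among them, with −0.06 and 0.00 in the 4B4 band. Of 20 SRF and MRTF targets, which encode actin cytoskeleton proteins, 3 were lower, among them TAGLN (−1.34) and the tropomyosin gene TPM1 (−0.82), with −0.47 and 0.15 in the 4B4 band. Some single genes, which stand for no group here, were also lower in the control band. CAV1, which encodes caveolin-1, had −0.84 and −0.26, FOSL1, a subunit of the AP-1 factor, −0.87 and −0.35, and TGFBI, a secreted matrix protein, −0.80 and −0.43. In the restricted G1 cells TAGLN had −0.86 and TPM1 −0.69 in the control library, and PSAT1 had −0.25 and MTHFD2 −0.10. By list, 2 SRF and MRTF targets, 1 ATF4 response gene and 0 cholesterol genes were lower by 1.5-fold there.

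Of the inflammatory cytokines and NF-kB targets 3 of 10 measured members were lower in the control band and 2 of 8 in the 4B4 band, none was higher, and the medians were 0.10 and 0.02, beside 4.46% and 1.38% lower of all genes. IL11, a cytokine of the IL-6 family, was at 11.3 against 28.1 UPM in the control and 21.8 against 37.1 UPM in the 4B4 library (−1.31 and −0.77). SAA1, an acute phase protein, was at 38.4 against 83.6 UPM and 0.880 against 9.96 UPM (−1.12 and −3.50). Without the top 1% of cells per gene SAA1 had −1.85 and −2.11. In restricted G1 cells SAA1 had −0.47 in the control and −3.54 in the 4B4 library and IL11 −0.87 and −0.44.

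**Figure D5:**
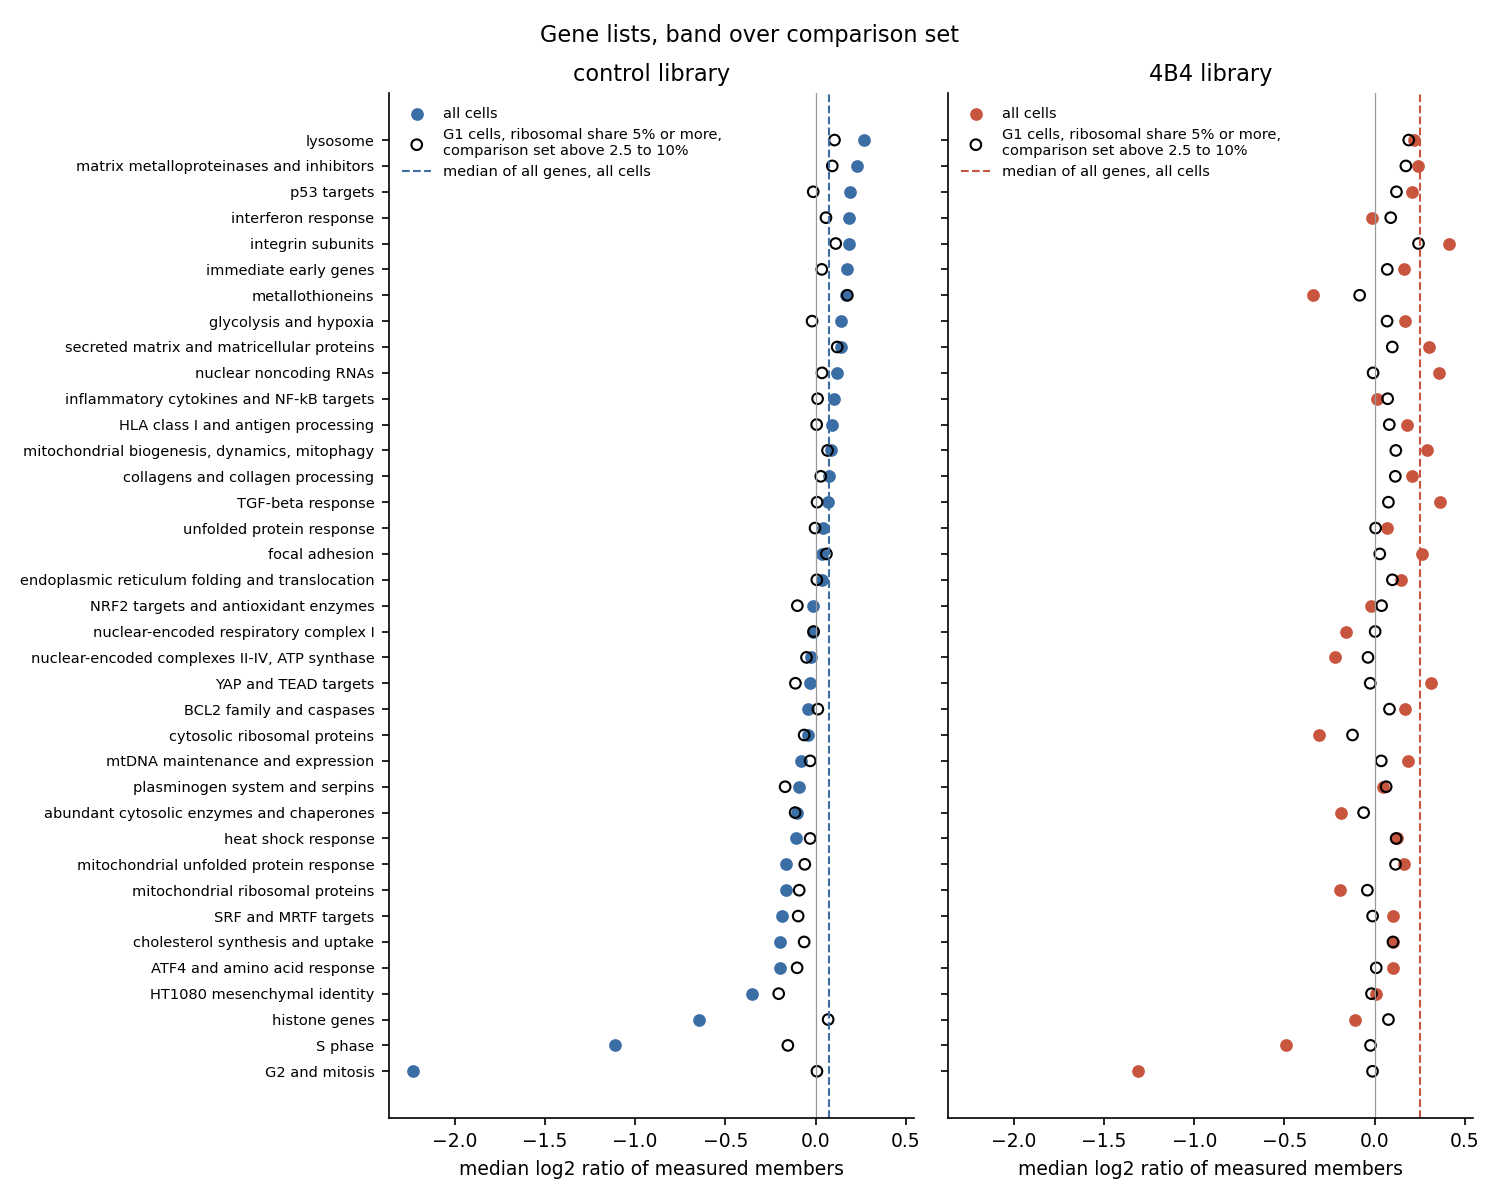
Median log2 ratio, band over comparison set, of the measured members of each gene list in the control (left) and 4B4 (right) library; filled circles are all cells, open circles G1 cells with 5% or more ribosomal protein UMIs and the comparison set above 2.5 to 10%, and dashed lines the median of all genes of 5 UPM or more. The G2 and mitosis, S phase and histone lists stand lowest in the control library and lie within about 0.2 of 0 among the restricted G1 cells.

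Outside the mitochondrial genes the band cells were not a separate group. Equal numbers of band and comparison cells were placed by 2000 variable genes without MT- genes, where 50% of a cell's neighbours would be band cells if the sets were mixed. Of the 15 nearest neighbours of control band cells 64.5% were band cells, against 37.8% for comparison cells. For 4B4 cells the values were 56.0 and 42.7%. Among G1 cells they were 57.5 and 44.4% in the control and 52.0 and 43.5% in the 4B4 library. Leaving only the genes of the S phase and the G2 and mitosis lists out of the variable genes gave 64.7 and 55.8% for band cells. Genes outside these lists that vary with the cycle were not removed.

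Between the libraries, 4B4 over control, band cells differed in 255 higher (3.43%) and 122 lower (1.64%) of 7425 genes. Without the ribosomal protein-poor cells 148 (2.03%) were higher and 165 (2.26%) lower of 7287. In the comparison sets 159 (2.24%) were higher and 532 (7.49%) lower of 7107. With TMM scaling 142 (2%) were higher and 155 (2.18%) lower in the band. The genes that follow were fixed with earlier results of these libraries known, and their direction is no independent finding. HMOX1, heme oxygenase, was at 25.9 UPM in control and 102 UPM in 4B4 band cells (1.97), with 2.22 in the comparison sets. SPP1, osteopontin, had 1.57 in the band and 1.64 in the comparison sets, TIMP1, an inhibitor of matrix metalloproteinases, 1.07 and 1.15, FN1 0.69 and 1.01, MMP14, a membrane collagenase, 0.51 and 0.65, and ITGB1 0.41 and 0.24. These genes had the same sign in the band and in the comparison sets. MTRNR2L12, a nuclear gene that resembles mitochondrial ribosomal RNA, did not, with 0.33 and −0.30. The median of all genes was 0.11 in the band and −0.07 in the comparison sets.

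Other genes of that set were lower in 4B4 cells. AMOTL2, a target of the mechanosensitive factor YAP, was at 45.1 UPM in control and 12.7 UPM in 4B4 band cells (−1.83, and −1.81 in the comparison sets). CCN1, another such target, had −1.31 and −1.52, ANKRD1 −1.28 and −1.69, PLAU, the urokinase gene, −1.06 and −1.15, and CAV1 −0.87 and −1.45. SAA1 had −5.45 (−6.29 to −4.72) and −3.07, or −4.78 and −4.51 without the top 1% of cells per gene. Of 18 measured YAP and TEAD targets 8 were lower and 1 higher in the 4B4 band, with a median of −0.47, against 4.28% higher and 2.88% lower of all 11820 genes by the same floor; 12 of 18 were lower and 0 higher without the ribosomal protein-poor cells, with a median of −0.78. In the comparison sets 15 of 19 were lower, with a median of −1.05, where 8.98% of all 11543 genes were lower and 2.58% higher. The proliferation genes MKI67 and TOP2A had −2.49 and −1.51 in the band against −1.82 and −1.85 in the comparison sets, and the G2 and mitosis list had medians of −0.83 and −1.79. Of 23 NRF2 targets and antioxidant enzymes 6 were higher in the 4B4 band, with a median of 0.36, and 5 in the comparison set, with a median of 0.24. Of 19 TGF-beta response genes 7 were higher and 2 lower in the 4B4 band, among them PMEPA1, a feedback inhibitor of the pathway (1.70).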

How the data were processed

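Single-cell RNA was measured in 1 control and 1 4B4 library, grouped by the treatment labels. The values deposited by the authors are raw UMI counts, a matrix of genes by barcodes; their pipeline was Cell Ranger 7.1.0, as the file headers state. GRCh38 is the build in the submitters' processing notes, which list Seurat 5.0.1 as well but not what it did. For the gene annotation and any further barcode filter, details were not given in the sources used here. The members and lists were chosen with earlier results of these data known.

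Counts were summed over cells and divided by the UMIs outside the 13 MT- genes. Ratios have no pseudocount. Levels carry exact Poisson, ratios conditional Clopper-Pearson and shares Clopper-Pearson intervals, at 95%. No test was possible with 1 library per group. The called genes lost to the interval numbered 0. Cells were thinned to 14000 UMIs and phases scored with scanpy 1.11.5 over both libraries. Scrublet marked 0 control and 4 4B4 barcodes, too few to be usable, so doublets were kept. TMM factors came from edgeR 4.0.16. Python 3.11.15 and R 4.3.3 were used, and the ratio script was tested on simulated data. Spans and positions are from GENCODE 29, matched by gene ID for 94.6% of IDs.

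The text names the 12 genes per direction with the largest smaller ratio of both libraries that kept their sign under every alternative fixed at the start, up to 4 members of each of 45 lists, and a fixed set for 4B4 over control; 1 pick, Y-linked, is not named. The lists hold pathways, complexes and markers, and the figure of list medians shows all pathway lists with a measured member. Alternatives changed the gene minimum, band and comparison bounds, floor, weighting, depth, phase, trimming and scaling. The bounds on ribosomal protein UMIs, the comparison set above 2.5% and the narrowest band were added after seeing the data.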

Additional observations from a re-analysis of the deposited data

How the results depend on the processing

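Intervals cover counting error, and with 1 library per group the spread between cultures is unknown. No paired analysis was possible because each group has 1 library. Counts of genes follow as higher/lower in the control band, the 4B4 band and both bands, against 100/285, 1030/48 and 55/37, and as higher/lower in 4B4 over control within the band, against 255/122; a count not given stayed within 1.5 times. Depth limits low genes most: with a floor of 5 UPM the counts were 340/524, 1798/161, 169/133 and 506/340, and with 50 UPM 46/128, 531/14, 26/11 and 126/58. A comparison set at or below 7.5% gave 504/499, 2120/117 and 369/66. A total with MT- genes gave 48 higher in the control, 472/74 in the 4B4 and 18 higher in both bands. TMM scaling gave 36/446, 67/498 and 3/126, and 142 higher for 4B4 over control. A band of 10 to 15% gave 447 higher in the 4B4 band. Cells matched on UMIs gave 421 higher in the 4B4 band and 28 in both, and 201 lower for 4B4 over control. Thinned cells gave 32 higher in both and 615 higher for 4B4 over control, and cells of the same weight 31 and 877. Phases of the same weight, which in the 4B4 band rest on 11 S and 5 G2M cells, gave 53 lower in the control and 2762/462 in the 4B4 band, and 2120/492 for 4B4 over control.

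G1 cells gave 17/11, 17 lower in the 4B4 band and 10/1 in both, with 57.5% band neighbours of control band cells; phases on unthinned cells gave 15.7% S cells in the control comparison set. The alternatives chosen after seeing the data gave the following. A comparison set above 2.5% gave 127 higher in the 4B4 band and 13 in both. G1 cells with that set gave 11/11, 74/0 and 3/0. The first 2.5 points of the band gave 127 higher in the 4B4 band, 13 in both and 188 lower for 4B4 over control. Cells with 5% or more ribosomal protein UMIs gave 95 and 22 higher, and 148 for 4B4 over control. With the comparison set above 2.5% as well, they gave 11, 3 and 148. G1 cells under both restrictions gave 11/11, 8/1 and 0/0, and 150 higher for 4B4 over control.

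Of 88 values of lists with a median past 1.5-fold 5 changed sign and 66 were still past it, and of 2676 values of named genes past it 26 changed sign and 2018 were still past it; the cause was not tested. The sign changes were nearly all in G1 cells. There the control median of the histone list was 0.0763, and 0.0701 with the comparison set above 2.5% and under both restrictions, where that of the G2 and mitosis list was 0.00804. In the 4B4 library CDK1 had 0.44 with that set and 0.51 under both restrictions. HIST1H3B had 0.34, 0.50 and 0.57 in G1, G1 with that set and G1 under both restrictions, and H2AFX 0.0345, 0.28 and 0.33, with 0.0223, 0.0925 and 0.0925 in the control library. TOP2A had 0.15, 0.11 and 0.15 in the 4B4 library, and HIST1H2AG 0.18, 0.11 and 0.11 in the control library. Under both restrictions in G1, the 4B4 values were 0.0127 for CDKN3, 0.0182 for HMGB2, −0.00173 for MALAT1 and −0.00864 for FTX. RRM2 had 0.14 with phases of the same weight. RBMS3 had −0.20 and MMP16 −0.0405 in 4B4 cells with 5% or more ribosomal protein UMIs and the comparison set above 2.5%, and −0.25 and −0.0331 in G1.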
